A study of Carica papaya with 15 samples.

Results

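Of the 20332 genes listed for papaya pulp, 95 had their highest level in fruit sampled after 12 h of ethylene and a lower one in gassed fruit at 24 h. They were chosen on log2(normalized count + 1), the scale of every log2 value here, among 14391 genes that averaged 10 normalized counts or more over the 15 libraries, of which they were 0.660%. A gene was taken when its mean in the gassed fruit at 12 h was at least 1.5 above the means of fresh fruit, of untreated fruit at 12 h and of gassed fruit at 24 h. Its lowest library of gassed fruit at 12 h also had to lie above the highest library of untreated fruit at 12 h and of gassed fruit at 24 h. The distance to the highest of those 3 means is called the margin below. These comparisons chose the genes, so their values are given as a description, with no test. The 95 genes were tested only between untreated fruit at 24 h, which the choice left out, and one of the groups it used, whose level it had held low.

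The fruit were of the cultivar "Golden" of Carica papaya. C0h, C12h and C24h were fruit kept without added ethylene at 0, 12 and 24 h. T12h fruit were held in a closed system with ethylene at 100 ppm for 12 h. By the study's methods they were then vented with air for 1 h and frozen, so no library was sampled in the gas. T24h fruit had the same 12 h of gas and stood another 12 h after venting. Each group had 3 libraries, 1 from each of the harvests A, B and C. For a library, the pulp of 5 or more fruit, peeled and freed of seeds, was pooled, and replicates are therefore pools rather than fruit. Libraries held between 7999275 reads (C24h B) and 12542678 reads (C0h C), as read back from the values. In bulk pulp, fewer cells of a type and less RNA per cell cannot be told apart.

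Ethylene is the hormone that sets ripening going in climacteric fruit such as papaya. It is bound by receptors of the ETR and ERS kind, which in the absence of the hormone keep the kinase CTR1 active and the response shut. Binding lets EIN2 and the transcription factors of the EIN3 family act, and a second layer of factors, many of the ERF family, carries the response on. Some target genes stay high through ripening, and others respond only while the gas is present. The 95 genes were picked by a higher level in T12h than in T24h. The paper reports that the treatment set off the fruit's own ethylene production, in both groups of gassed fruit. T24h fruit were therefore out of the added gas but not free of ethylene. Whether the 95 genes respond only while the gas is present was not tested.

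The library labelled C24h B and the library labelled T24h C, which differ in treatment and harvest by their labels, were nearly the same profile. Over the 13559 genes with at least 20 reads in both together, their reads differed with a chi-square of 2.05 per degree of freedom, where counting error alone gives about 1. Among the other pairs of the 105 the lowest value was 12.2, and within groups it ran from 15.7 to 156. The 95 genes differed between these 2 libraries by a median of 0.158 in size on the log2 scale, against at least 0.394 in every other pair. The main counts and medians of the comparisons with C24h, and of T24h with the controls, are given with and without these libraries below. Other values, such as the median of T12h minus T24h, rest on all libraries. The paper reports that C24h B grouped with treated samples, and names a slightly higher ethylene yield in that sampling as the probable reason. Why the 2 libraries are alike was not tested.

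**Figure D1:**
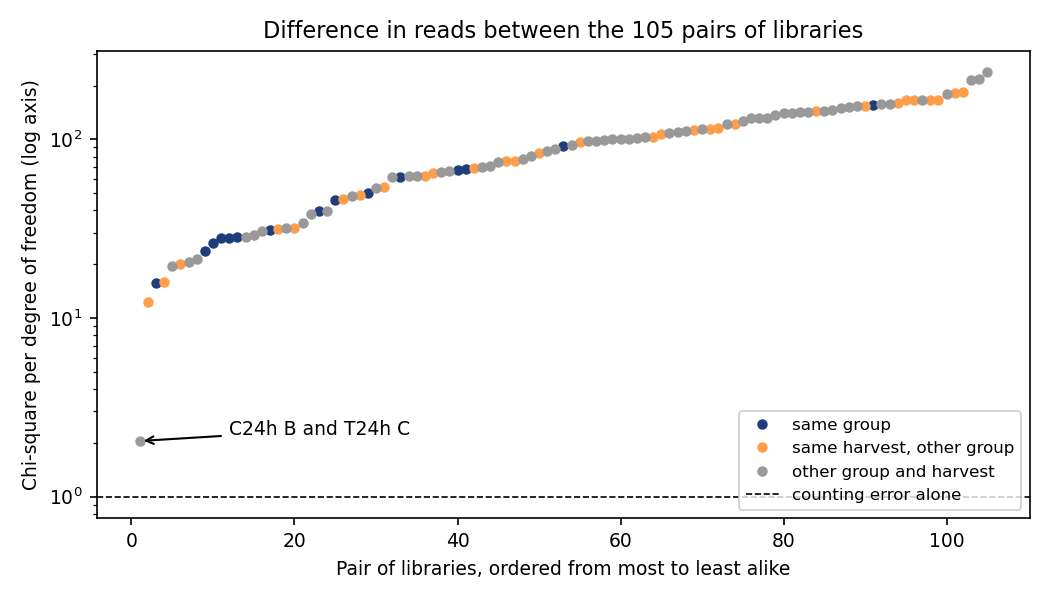
Chi-square per degree of freedom of the reads of 2 libraries, on a log axis, for all 105 pairs of the 15 libraries, ordered from the most to the least alike. Colours give pairs of the same group, of the same harvest in other groups, and all others, and the dashed line is counting error alone. The pair C24h B and T24h C stands at 2.05, below the next pair at 12.2.

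Together the 95 genes took between 1.23% and 1.36% of all normalized counts in the T12h libraries. In fresh fruit they took 0.324%, 0.138% and 0.122% in harvests A, B and C, and in C12h 0.150%, 0.343% and 0.151%. In C24h the shares were 0.201%, 0.344% and 0.233%. In T24h they were 0.555%, 0.161% and 0.345%. The T12h libraries stood apart from all 12 others. The choice had set T12h above C12h and T24h in every gene and held the C0h means low, so this is a description. C0h A, C12h B and C24h B were the high libraries of their control groups.

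**Figure D2:**
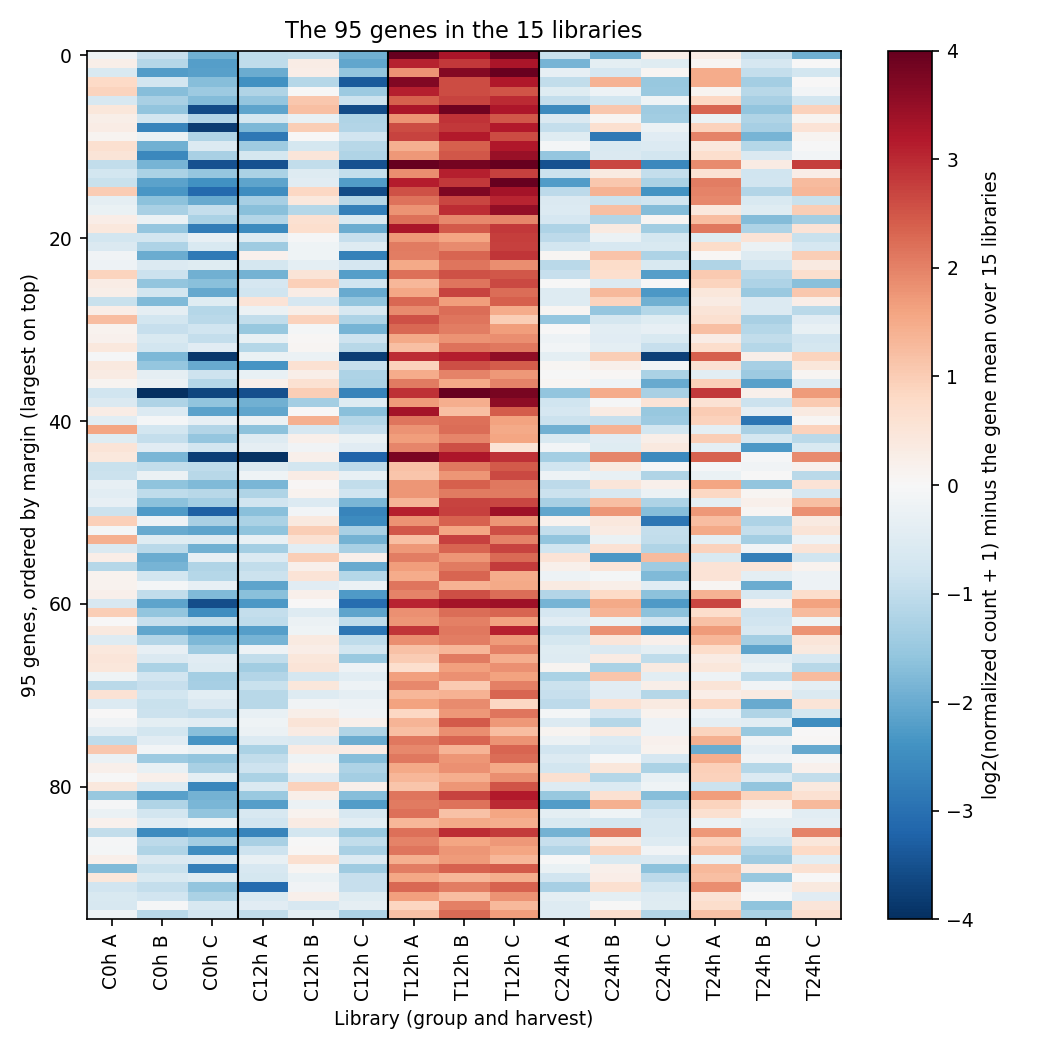
Each row is 1 of the 95 genes, ordered by margin, and each column 1 of the 15 libraries. Colour is log2(normalized count + 1) minus the mean of the gene over the libraries, from -4 or less (blue) to 4 or more (red). The 3 T12h columns are red throughout, C0h A, C12h B, C24h B, T24h A and T24h C are less blue than the other columns, and C24h B and T24h C look alike.

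The genes covered a wide range of levels. Their mean in T12h ran from 25.0 normalized counts for DAU1 to 17954 for LOC110820322, with a median of 275. Below 100 normalized counts lay 30 of them, between 100 and 1000 lay 36, and 24 were between 1000 and 10 times that level, with 5 higher still. Margins ran from 1.51 to 4.88 with a median of 1.90, and 38 genes reached 2, 6 reached 3 and 1 reached 4. For 69 genes the highest of the 3 other groups was T24h, for 14 it was C12h and for 12 it was C0h. The median difference of T12h was 3.02 to C0h, 2.86 to C12h and 2.06 to T24h on the log2 scale.

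The edge of the choice was narrow. Just inside stood LOC110816381, LOC110823953 and LOC110817293, with margins of 1.51, 1.52 and 1.52. Just outside were LOC110819147 and LOC110806528, both at 1.48, and LOC110823040, at 1.49995. Another 28 genes passed the margin but had libraries of T12h that overlapped those of C12h or T24h.

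Gene symbols from a current RefSeq table were found for 19 of the 95 genes, and a gene family was known for 4 more. The other 72 are given by their identifier. The table lists 84 as protein coding, 4 as pseudogenes and 1 as a transcribed pseudogene, and 6 identifiers were not matched. The named genes are described below by what their products do, roles that for most are known from Arabidopsis.

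ABCG10 (LOC110808870), an ABC transporter of the G subfamily, whose members move lipids, hormones and secondary metabolites across membranes, had the largest margin. It had 68.0, 35.8 and 93.3 normalized counts in T12h A, B and C. In the 12 other libraries it lay between 0 and 3.63, with 0 in C0h C, C12h C, C24h B and T24h C. The T12h mean was 65.7 ± 28.8 normalized counts (SD, n = 3), and the log2 difference was 5.34 to C12h and 4.88 to T24h, sizes that the added 1 makes smaller than the true ratio at such low counts.

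Other carriers of small molecules were among the 95 genes. AAP3 (LOC110813554), an amino acid permease, was among the most abundant of the 95 genes. It had 13258, 10491 and 14419 normalized counts in T12h, against 1575, 2741 and 954 in C12h and 8377, 2785 and 2963 in T24h. Its log2 difference was 2.98 between T12h and C12h and 1.62 between T12h and T24h, and T24h A alone of the T24h libraries was far above the controls. SWEET2 (LOC110818297), a sugar transporter of the vacuole in Arabidopsis, had 30.1, 47.7 and 87.7 normalized counts in T12h and 10.9, 13.1 and 5.77 in T24h. G3PP4 (LOC110811461), a glycerol-3-phosphate transporter, had 49.0, 92.5 and 123 in T12h and 23.0, 11.1 and 16.1 in T24h. For both of these minor transcripts all T24h libraries were within the range of the 9 control libraries or below it.

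Enzymes of hormone and lipid turnover followed. GA2OX8 (LOC110806753) is a gibberellin 2-oxidase, an enzyme that inactivates gibberellins. It had 662, 464 and 435 normalized counts in T12h, 32.2, 74.9 and 26.8 in C12h, and 82.3, 34.2 and 69.2 in T24h. Its T12h mean was 520.5 ± 123 normalized counts (SD, n = 3), and every library outside T12h was at or below the 141 of C0h A.

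ECI1 (LOC110824170), an enoyl-CoA isomerase that works in the peroxisomal breakdown of unsaturated fatty acids, had 1035, 1304 and 1579 normalized counts in T12h. It had 67.1, 416 and 109 in C12h and 351, 79.5 and 119 in T24h, so that C12h B and T24h A were the high libraries of the other groups. PGSIP1 (LOC110816105), a glycosyltransferase that in Arabidopsis adds glucuronic acid to xylan, had 32.3, 21.9 and 43.3 in T12h and 1.21, 6.04 and 1.15 in T24h. In T24h it was thus below every C0h library, whereas the T24h mean was above the C0h mean in 75 of the 95 genes.

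Genes of the cytoskeleton, the chromosomes and signalling were a further kind. EB1C (LOC110822233) binds the growing ends of microtubules and had 287, 639 and 464 normalized counts in T12h, against 55.4, 121 and 23.5 in C12h. XIJ (LOC110815006), a class XI myosin, had 14.5, 28.8 and 33.3 in T12h and no more than 12.8 elsewhere. BARD1 (LOC110807674), a partner of BRCA1 in DNA repair, had 71.3, 139 and 248 in T12h and 8.94, 15.5 and 11.4 in C12h. In all 3 genes harvest A had the lowest T12h value.

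NEK4 (LOC110814726), a NIMA-related kinase, had 518, 416 and 1033 normalized counts in T12h, 12.5, 42.0 and 11.4 in C12h, and 239.6, 33.2 and 141 in T24h. PERK11 (LOC110813110), a receptor kinase with a proline-rich outer domain, had 702, 1646 and 1279 in T12h, 79.6, 134 and 99.0 in C12h, and 284, 109.7 and 233 in T24h. Both kinases stayed above all C12h libraries in T24h A and T24h C and lay within their range in T24h B.

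Stress and RNA-related genes were another kind. HSP70T-2 (LOC110814125), a shortened HSP70 chaperone, had 1809, 2186 and 2271 normalized counts in T12h and 43.8, 221 and 25.2 in C12h. In T24h it had 1402, 244 and 669, and in C24h 58.7, 620.2 and 44.3. The T12h libraries were close to each other, while T24h A and the alike pair T24h C and C24h B were well above the other libraries.

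HVA22J (LOC110810621), of a family named after an abscisic acid-induced barley gene, had 193, 221 and 292 normalized counts in T12h and 19.7, 20.1 and 0.812 in C12h. In T24h it had 128, 28.2 and 45.0, above every C0h and C12h library. SDE3 (LOC110809693), an RNA helicase of RNA silencing, had 105, 179.9 and 161 in T12h, 2.68, 12.8 and 7.31 in C12h, and 76.2, 15.1 and 91.1 in T24h. ICE1 (LOC110813027), a transcription factor of cold tolerance in Arabidopsis, had 229.5, 188 and 193 in T12h and 116, 14.1 and 18.5 in T24h. For ICE1 only T24h A was above the control libraries.

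LOC110806658, a transcription factor gene of the NAC family, had 128, 114 and 259.9 normalized counts in T12h and 26.6, 55.3 and 19.6 in T24h. All 9 control libraries were between 17.8 and 36.5, and T24h B was the high one in T24h, unlike most of the 95 genes. The current table lists this locus as a pseudogene.

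The families of 3 more genes were known. LOC110823023, an S-adenosylmethionine-dependent methyltransferase, had 379, 441 and 568 normalized counts in T12h and 16.99, 122 and 26.8 in C12h. LOC110815485, an inhibitor of pectin methylesterase, the enzyme that strips methyl groups from cell wall pectin, had 22.3, 18.9 and 84.4 in T12h and 0.894, 1.83 and 4.06 in C12h. LOC110819981, an arabinogalactan protein of the cell surface, had 31.2, 49.7 and 84.4 in T12h and 8.94, 27.4 and 16.2 in C12h. Harvest C had the highest T12h value in all 3.

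The symbols ATIM, CCR3 and DAU1 belong to genes whose papaya role is not clear from the sources used here. ATIM (LOC110823092) had 52.4, 93.4 and 131 normalized counts in T12h and 38.7, 8.05 and 5.77 in T24h. CCR3 (LOC110819355) had 49.0, 26.8 and 53.3 in T12h and 18.1, 11.1 and 9.23 in T24h. DAU1 (LOC110806331) had 21.2, 22.9 and 31.1 in T12h and 15.7, 5.03 and 3.46 in T24h. These 3 low transcripts were highest in T24h A among the T24h libraries.

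The most abundant genes had no symbol, AAP3 excepted. LOC110820322 had 14020.3, 21840.1 and 18003 normalized counts in T12h, 1182, 4265 and 2124 in C12h, and 12503, 1383 and 6091 in T24h. LOC110817822 had 12026, 14246 and 10817 in T12h and 1748, 2971 and 1749 in C12h. LOC110806435 had 7538, 16113 and 12061 in T12h, and its T24h libraries, with 1794, 947 and 2349.6, lay within the range of the controls. LOC110816080 had 11376, 6832 and 13262 in T12h, but 5138, 1017 and 5492 in T24h and 5615 in C24h B against 808 and 285 in C24h A and C.

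Next to ABCG10, the genes with the largest margins were LOC110806880, LOC110806660, GA2OX8 and LOC110816221. LOC110806880 had 93.6, 77.5 and 106 normalized counts in T12h and 12.8 at most elsewhere. LOC110806660 had 279.6, 1042 and 1259 in T12h, with 226 in T24h A and 41.3 and 47.3 in T24h B and C. LOC110816221 had 131, 61.6 and 93.3 in T12h and 0.894, 3.65 and 0 in C12h.

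**Figure D3:**
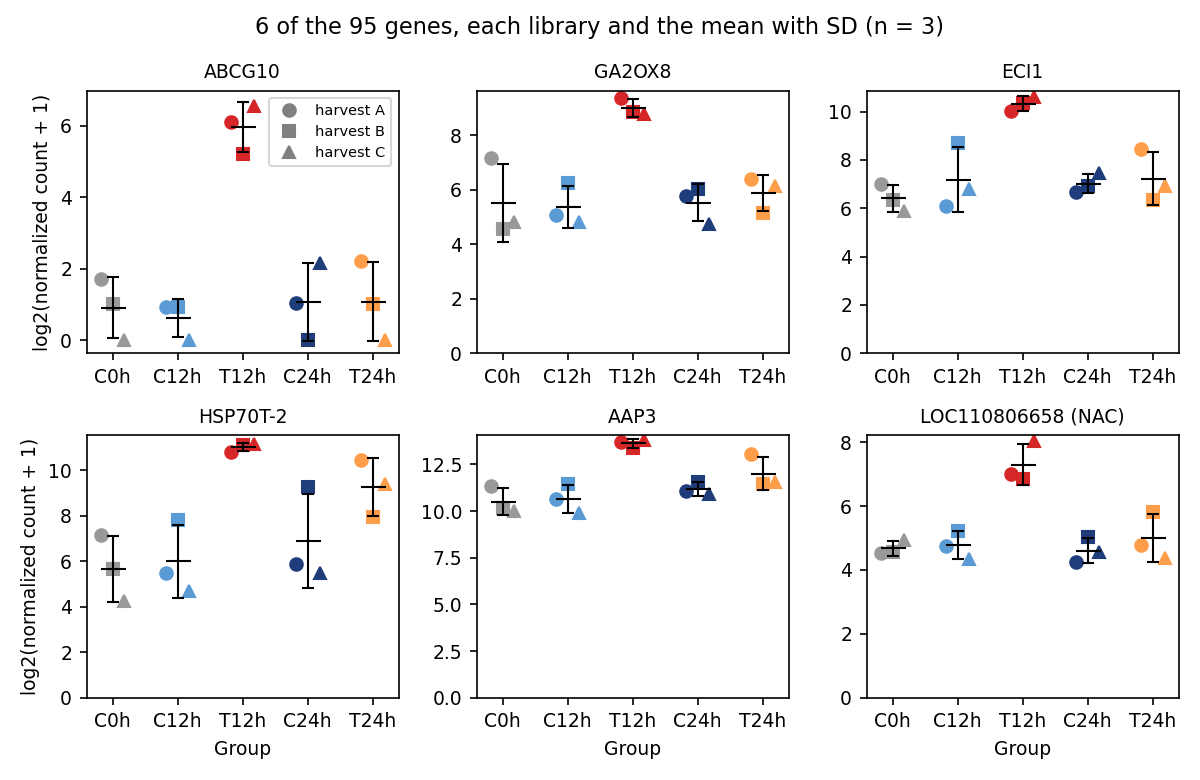
Log2(normalized count + 1) in each library for ABCG10, GA2OX8, ECI1, HSP70T-2, AAP3 and the NAC gene LOC110806658, by group, with a symbol for each harvest, the mean as a dash and the SD as bars (n = 3 libraries). Every T12h point is above every other point of its gene, and T24h A is above all C0h and C12h points for HSP70T-2 and AAP3 but not for GA2OX8.

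Untreated fruit at 24 h took no part in the choice. In all 95 genes the lowest T12h library was above the highest C24h library, a pattern that 13.3% of the 14391 genes had. It held for the 95 genes also with C24h B left out, where 28.4% of all genes had it. T12h was above C24h by a median of 2.54 on the log2 scale, and by at least 1.35, and the median was 2.79 without C24h B. Against fresh fruit, where the choice asked only for a distance between means, T12h was above every C0h library in 92 of the 95 genes (25.7% of all). The exceptions were LOC110818984, LOC110807896 and LOC110818602. C24h fruit were untreated like those of C12h, which the choice held low, so this count is a description.

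The control groups were compared by test to ask whether the genes also moved with time alone. Between C0h and C24h and between C12h and C24h, limma with Benjamini-Hochberg adjustment over 15270 genes called 0 of the 95 genes and 0 (0%) of all genes, and the smallest adjusted p among the 95 was 0.789 and 0.860. At an unadjusted p of at most 0.05 there were 958 and 549 genes in all, of which 2 and 2 were among the 95, all higher in C24h. DESeq2, on the 13 libraries whose reads were used for count tests, called 10 and 4 genes in all, and neither it nor edgeR called any of the 95. The choice held C0h and C12h low, which leaves room for higher values in C24h. The medians of C24h minus C0h and minus C12h were 0.41 and 0.33, against -0.0061 and -0.0023 over the 14391 genes. Without C24h B they were 0.020 and -0.047. The first was also 0.068 without C0h C and 0.78 without C0h A, and the second 0.13, 0.65 and 0.062 without C12h A, B and C, and 0.54 without C24h C, so these medians leaned on single libraries.

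Single genes were high in C24h relative to the other controls. LOC110814904 had 6.29, 60.4 and 7.81 normalized counts in C24h A, B and C, against 11.5, 0 and 0.713 in C0h and 0.894, 42.0 and 2.44 in C12h. LOC110819515 had 283, 2822 and 123, against 983, 206 and 52.8 in C0h and 46.5, 835 and 77.9 in C12h. SDE3 had 5.24, 95.1 and 13.9. In each of these genes C24h B alone was the high library of C24h. The 3 genes lowest in C24h were LOC110814744, LOC110818602 and LOC110818984, with 1.74 to 3.15, 4.20 to 12.1 and 34.6 to 74.6 normalized counts, and C24h B was not set apart from C24h A and C in them.

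Gassed and untreated fruit at 24 h were compared as well. The choice had kept every T24h library under T12h, so the counts below describe the 95 genes as chosen and are not read against those of all genes. With all libraries, limma called 0 of the 95 genes and 0 (0%) of all genes between C24h and T24h, with a smallest adjusted p of 0.182 among the 95. At an unadjusted p of at most 0.05 there were 2843 genes, with 4 of the 95 among them, all higher in T24h. On 13 libraries, edgeR called 0 genes in all and DESeq2 122, none of the 95. The median of T24h minus C24h was 0.44 over the 95 genes, with 78 above 0, against 0.0051 over all genes. It was 0.63 without C24h B, 0.42 without T24h C, 0.16 without T24h A, 0.90 without T24h B and 0.27 without C24h C.

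Without C24h B the same test called 3602 of 15279 genes (23.6%), and of the 95 genes 8 were higher and 1 was lower in T24h. Without harvest B, which drops C24h B and T24h B together, it called 18 higher and 1 lower of the 95, and 2365 of 15297 genes (15.5%). Without T24h C, and with C24h B in place, it called 0 of the 95 and 3 genes in all. With both left out the median of T24h minus C24h was 0.67.

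Of the 9 genes called without C24h B, HSP70T-2, NEK4 and SDE3 have symbols, with log2 differences of 3.56, 2.59 and 2.33 between T24h and the means of C24h A and C. LOC110823042 had the largest of the 9 differences, 4.69. It had 0 and 0.868 normalized counts in C24h A and C, 69.4 in C24h B and 39.9, 13.1 and 75.0 in T24h. LOC110808033 had 55.6 and 47.7 in C24h A and C, 241 in C24h B and 513, 295 and 242 in T24h, a log2 difference of 2.67. All 3 T24h libraries of both genes were above C24h A and C. The gene lower in T24h was LOC110817181, which had 28.3 and 46.9 in C24h A and C and 12.1, 2.01 and 10.4 in T24h, a log2 difference of -2.29. Its C24h B value was 3.02, on the side of T24h.

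How far the level had come down by T24h differed among the libraries of the harvests. Each value within a harvest is a single library minus another, so a harvest and a single pool cannot be told apart. Within harvest A, T12h was above T24h by a median of 1.11 on the log2 scale, within harvest B by 3.16 and within harvest C by 2.10. T24h was above C12h by a median of 1.86 in harvest A and of 1.32 in harvest C, with 84 and 80 of the 95 genes higher. In harvest B it was below by 0.86 at the median, a difference of -0.86, with 75 of the 95 genes lower. The median of T24h minus C24h was 1.42, -1.0 and 0.79 in harvests A, B and C. The value of harvest B rests on C24h B and that of harvest C, as in the other comparisons with T24h, on T24h C, the alike pair. Against the mean of C24h A and C, T24h A was higher by a median of 1.46 and T24h B differed by -0.011, with 47 of the 95 genes higher, so that its median was near 0 with C24h B left out. Harvest C has no value without T24h C.

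Over all harvests, all T24h libraries were above every C0h library in 18 of the 95 genes (20.2% of all genes) and above every C12h library in 14 (22.9% of all genes). Without T24h C the counts were 21 (24.6% of all genes) and 17 (27.3% of all genes). The choice used all these groups and held T24h under T12h, so nothing is read from these shares. The median of T24h minus C0h was 0.84 and of T24h minus C12h 0.78, so the typical gene was above its control level in the mean, with overlapping libraries. These medians were 0.81 and 0.68 without T24h C, 0.42 and 0.39 without T24h A and 1.27 and 1.23 without T24h B, and the first was 0.49 without C0h C.

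**Figure D4:**
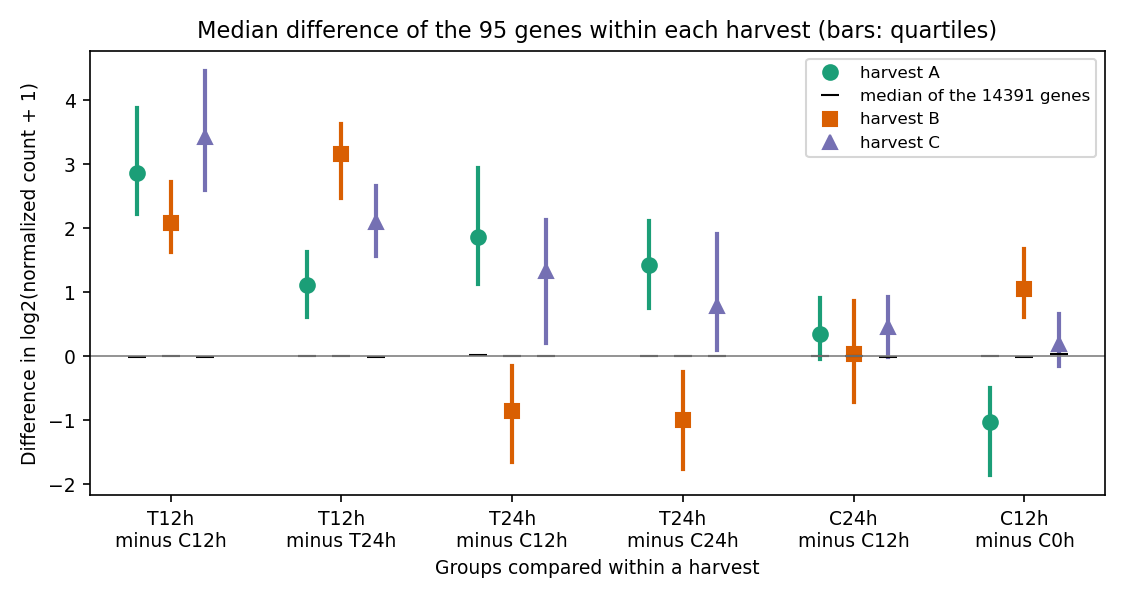
Median over the 95 genes of the difference in log2(normalized count + 1) between 2 groups within harvests A, B and C, with bars for the quartiles and black dashes for the median of all 14391 genes, which lie near 0. T24h minus C12h is above 0 in harvests A and C (1.86 and 1.32) and below it in B (-0.86), while T12h minus C12h and T12h minus T24h are above 0 in each harvest.

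Single libraries also stood out within the groups, the controls included. C0h A was the highest C0h library in 86 of the 95 genes, where it was so in 39.1% of all genes. C12h B was the highest C12h library in 86 (34.9% of all), C24h B the highest C24h library in 60 (40.8%) and T24h A the highest T24h library in 72 (36.5%). T24h B was the lowest T24h library in 73 (34.1%). Relative to the other 2 libraries of the group, the median over the 95 genes was 1.09 higher in C0h A, 1.14 higher in C12h B and 1.13 higher in T24h A on the log2 scale. The genes thus moved together among libraries of 1 group, also without added ethylene. Between C0h and C12h they were lower by a median of 1.02 in harvest A (-1.02) and higher by 1.05 in harvest B, with 0.18 in harvest C. Every T12h library was held high by the choice, and among them harvest C was highest in 43 genes, B in 37 and A in 15.

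**Figure D5:**
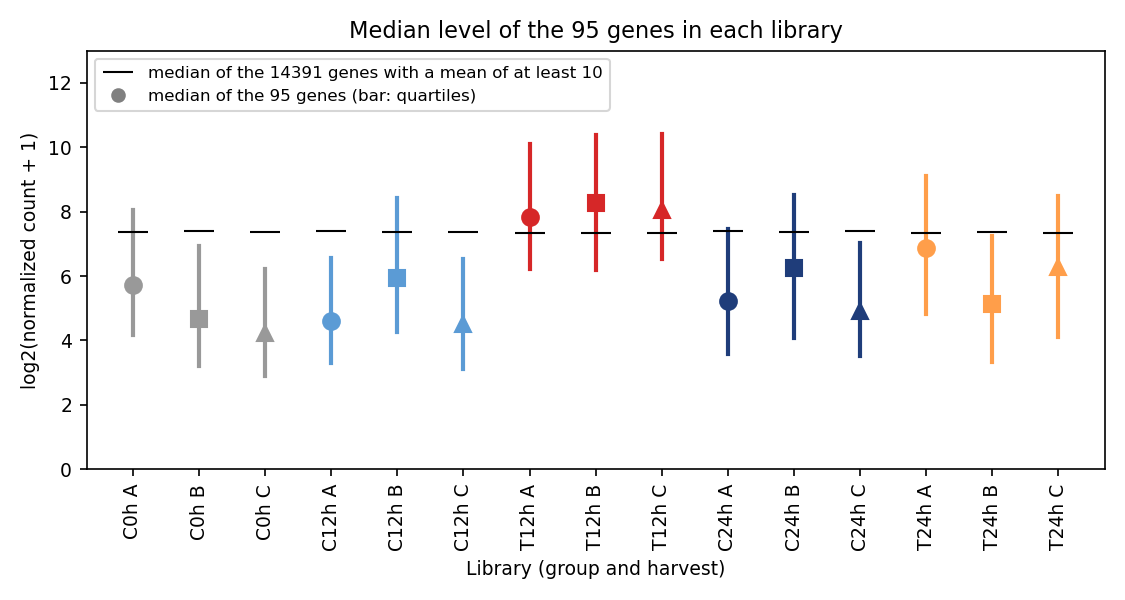
Median and quartiles of log2(normalized count + 1) over the 95 genes in each library, with the median of the 14391 genes as a black dash. The 95 genes lie above the dash in the 3 T12h libraries (medians of 7.85, 8.27 and 8.05) and below it in the 12 others, from 4.23 in C0h C to 6.87 in T24h A.

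As a description of libraries the choice had not used, the genes were chosen anew from 2 harvests and read in the one left out. The shares of all genes beside them cover mostly genes that were not called higher in T12h. From harvests A and B, 96 genes were chosen, and in harvest C T12h was above C0h, C12h and T24h in 89 of them (92.7%, against 27.5% of all genes). This reading rests on T24h C, of the alike pair. From A and C, 71 were chosen, and in harvest B it was so in 62 (87.3%, against 30.3%). From B and C, 207 were chosen, and in harvest A it was so in 157 (75.8%, against 20.8%). The full margin was reached by 55, 38 and 20 of the chosen genes (57.3%, 53.5% and 9.66%), against 1.35%, 1.52% and 0.285% of all genes. Harvest A showed the pattern least, and its T24h library was the highest of the 3. The choice rested on the T24h libraries above all. Without T24h A it took 169 genes, 94 of them among the 95, and without harvest A 207, of which 91 were shared. Without T24h C, the library like C24h B, it took 103, of which 84 were shared.

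Some of the genes lie side by side in the order of genes of the current papaya assembly, which is not the one used for the counts. Whether they do so more often than other genes was not tested. PERK11 and its neighbours on both sides, LOC110813130 and LOC110813129, form a run of 3 on chromosome 8. LOC110813130 had 100, 117 and 80.0 normalized counts in T12h and 61.7, 20.1 and 23.1 in T24h, and LOC110813129 had 46.8, 64.6 and 43.3 and then 27.8, 1.01 and 6.92. LOC110814904 and LOC110814947 are neighbours on chromosome 6, and 3 more pairs on chromosomes 1, 5 and 6 have 1 or 2 genes between them. Whether reads of neighbours were shared was not tested, though uniquely aligned reads were counted. The 84 placed genes were on all 9 chromosomes, where they were 0.352% to 0.674% of the genes.

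The wider pathways of the named genes were followed by symbol, with the 95 genes themselves left out, in limma with Benjamini-Hochberg adjustment between C12h and T12h. Of all genes, 11.7% were higher and 12.3% lower in T12h. Of 48 other ABC transporters, 9 rose and 5 fell. Those that rose most were ABCG31, ABCG2 and ABCG11, with log2 differences of 4.96, 4.76 and 3.53, and ABCB19, an auxin transporter in Arabidopsis, fell by 2.58. ABCG2 had 12410.4, 10658 and 18854 normalized counts in T12h and 20377, 3399 and 9060.3 in T24h, so that T24h B and C were below every T12h library and T24h A above them all.

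Of 17 other genes of RNA silencing, 7 fell and 1 rose, against a single member, SDE3, among the 95. Those that fell were RDR2, RDR1 and RDR6, RNA-dependent RNA polymerases, with SGS3, AGO10, NRPE5 and NRPD1B. The one that rose was HEN1, a methyltransferase of small RNAs, by 1.07 on the log2 scale. Of 14 other heat shock genes, HSFB3 rose and the heat shock factors HSFA6B and HSFA3 fell, by 3.71 and 1.47 on the log2 scale. The only other gene of the gibberellin list, the receptor gene GID1C, fell by 1.95.

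Of 10 genes of ethylene signalling the receptors ERS1 and ETR1 and the kinase CTR1 rose, by log2 differences of 2.57, 0.92 and 0.78, and 0 fell. Of 10 genes placed by symbol in a list of ethylene synthesis, ACS10 and MTK rose. EOL2 of this list, which in Arabidopsis helps to degrade ACC synthase, fell by 2.55. A symbol alone places a gene there, and whether the product of ACS10 takes part in ethylene synthesis was not tested. None of the 95 genes was in these 2 lists by symbol. The paper counts NAC genes and S-adenosylmethionine-dependent methyltransferases among its ethylene-related genes, and LOC110806658 and LOC110823023 are of these families. Of 8 other genes of peroxisomal beta-oxidation ACX2, an acyl-CoA oxidase, rose by 2.21 and the other 7 did not pass the test. Of 14 other amino acid, sugar and phosphate carriers 5 rose, among them the hexose transporter STP14 with 2.30 and CAT9 with 1.81, and CAT8 fell by 0.97. Of 6 other kinases of the PERK and NEK families, PERK1 and PERK5 rose. Of 4 other HVA22 genes, 2 rose and 1 fell. Of 21 genes in a list of other transporters, STP14 rose, and PIP2;8, an aquaporin, and NRT2.7, a nitrate transporter, fell.

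These list counts leaned on single libraries and harvests. The genes called between C12h and T12h were 3675 in all, 305 without harvest A and 0 without harvest C, where each list call above was lost. They were 5188 without C24h B and 6762 with library quality weights. Without C12h A, C12h C, T12h C and T12h B they were 843, 884, 1154 and 1937. In the same order the calls were 3, 4, 4 and 7 of the ABC transporters. Of RNA silencing they were 2, 3 and 4 without the first 3 of these libraries, and of the carriers 2 in each case. The calls in ethylene signalling were 0 without any 1 of C12h A, C12h C and the 3 T12h libraries, and ACX2 was lost without C12h A or C12h C. Calls of HVA22 genes were 1, 0 and 0, and of PERK and NEK kinases 1 each, without C12h A, C12h C and T12h C. The list of other transporters kept 0, 1, 0 and 0 calls without C12h A, C12h C, T12h C and T12h B. The heat shock calls were 5, 6 and 6, not 3, without C24h B, C24h C and T24h A, and the beta-oxidation calls were 3 without C24h B or C24h C.

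Markers of other tissues were summed in each library. Seed markers came to 5.55 normalized counts at most, with 1 of 3 at 0 in all libraries, and peel and epidermis markers to 30.2. The sum of 11 genes of green plastids was 566 to 976 over all libraries, in T12h 689 to 976. PSY, phytoene synthase of carotenoid synthesis in ripening pulp, was at 413 to 927. The 4 vascular markers came to 69.9 to 531 in C0h, 59.3 to 698 in C12h, 5915 to 8761 in T12h, 117 to 4373 in C24h and 881 to 5538 in T24h. This sum was carried by IRX3, a cellulose synthase of secondary walls, with 5977, 5846.5 and 8696 in T12h and 4228 in C24h B. Like the level of the 95 genes it was highest in T12h, but it did not follow them throughout. The 95 genes took 0.343% of all normalized counts in C12h B and 0.344% in C24h B. The vascular sum was 698 at most in C12h and reached 4373 in C24h. The part of vascular tissue in the results was not tested.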

How the data were processed

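Pulp RNA of 15 pools of papaya fruit was sequenced from stranded paired-end libraries. The authors used SeqyClean 1.10.09 for cleaning, FastQC 0.11.8 for quality checks and STAR 2.6.0a for alignment to Papaya1.0, of which uniquely placed reads were kept, and DESeq2 1.20.1 to normalize gene counts. The counting tool is not given in the sources used here. The deposited signal values are gene counts over the size factor of the library, called normalized counts. In each library every value was, to within 0.001, an integer times 1 step, which gave the reads. T12h B and T24h B were left out of the count tests since a unit check did not accept their step, close to 1. The chi-square of library pairs used the reads of all 15 libraries, T12h B and T24h B included.

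All 5 groups were fitted together with limma 3.58.1 (R 4.3.3, trend in the variance) on log2(normalized count + 1) over 15270 genes that averaged 5 normalized counts or more, with Benjamini-Hochberg adjustment and 0.05 as the limit. Rose and fell mean an adjusted p within that limit. The script was tested on simulated data. The pools of a group are separate fruit of different harvests, so p-values measure the spread between pools and harvests together.

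The members and lists were chosen with earlier results of these data known. Named were the marker ABCG10, the members with a symbol, the 5 with the largest margin, the 5 with the highest T12h mean, 3 on each side of the margin, and the 3 highest and 3 lowest in C24h against the other controls. Those with a family given by the study's supplement, neighbours, the genes called without C24h B and single genes of lists were added after their values were seen. Lists hold symbols only. Of 24 planned lists, 20 held no member, of which ethylene synthesis and signalling are reported, and 5 lists were added for named members. Symbols come from a RefSeq table of another assembly, ASM5485532v1, used for names and gene order alone. A planned search of promoters for motifs was not run, as no promoter sequence was used here.

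A harvest gave 1 library to each group, so harvest letters pair libraries by label. Deviations from the group means did not go together within a harvest (median r = -0.048 over 30 pairs of libraries, against -0.028 over 60 pairs of different harvests), so a block for harvest was only an alternative. Alternatives were adding 0.5 or 5 in place of 1, dropping the filter or raising it to 50, TMM scaling, quantile normalization, other forms of the choice, library quality weights, only the 2 groups in the fit, each library or harvest left out, and count tests of 13 libraries with edgeR 4.0.16 and with DESeq2 1.42.0. Limma on those 13, and the counts without C24h B, were chosen after seeing the data.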

Additional observations from a re-analysis of the deposited data

How the results depend on the processing

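The number of genes chosen was 95. It was 63 with a mean of at least 50, 227 with a margin of 1 and 38 with a margin of 2, and from 64 to 207 when 1 library or harvest was left out. Pseudocounts, scalings and the other forms of the choice gave 81 to 125. With the replicate block of harvests the calls among the 95 genes were 0, 0 and 0 for C0h to C24h, C12h to C24h and C24h to T24h, as without it. Library quality weights called 4, 3 and 15 of the 95 (4.21%, 3.16% and 15.8%), and 6.88%, 6.67% and 32.4% of all genes. Leaving out 1 library or harvest called 0 to 19 for C24h to T24h, the 19 of 95 without harvest B (15.5% of all genes) and 9 of 95 without C24h B (23.6%), and 0 throughout for the others. The median of C24h minus C12h, 0.33, ran from -0.047 without C24h B to 0.65 without C12h B, and was 0.062 without C12h C. The cause of these changes was not tested. The differences of T12h to C12h and to T24h in the named genes, recomputed under the alternatives, gave 962 values, of which 954 moved by less than the SD over harvests. Their sign is fixed by the choice. With 3 pools a group, differences smaller than the spread between pools were not detectable.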
